A study of Mus musculus with 2 samples.

Results

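The nuclear-encoded respiratory chain genes were the genes whose array name begins with Nduf, Uqcr, Atp5 or Cox4 to Cox8, together with Sdha, Sdhb, Sdhc and Sdhd. The rule used names and no measured value. It found 92 of the 37008 named genes on the array, represented by 143 probes. They were sorted into complex I structural subunits (36 genes), complex I assembly factors (7), complex II (4), complex III (8), complex IV (18) and the ATP synthase (15). A further 4 genes carry such names but lie outside the complexes. RNA came from the mouse embryonic stem cell line 46C. The knockdown cells (shLincU) carried a short hairpin against the long noncoding RNA LincU, and the control cells (shCtrl) carried a control hairpin, although the control's title calls it wild type. Both were grown with 15% serum and leukaemia inhibitory factor on feeder cells, which were taken off before lysis. Each group is 1 array of Cy3-labelled RNA.

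The respiratory chain sits in the inner mitochondrial membrane. Complex I takes electrons from NADH and complex II takes them from succinate, both pass them through ubiquinone to complex III, cytochrome c carries them to complex IV, and complex IV hands them to oxygen. Complexes I, III and IV pump protons, and the ATP synthase uses the return flow of protons to make ATP. Most subunits are encoded in the nucleus and imported. Several complex IV subunits have a general form and a second form found mainly in muscle, lung or testis.

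With 1 array per group no difference has a replicate, so no test was made and no p-value is given. A level is the processed intensity in multiples of that array's own 75th percentile over probes, which was 420 for shLincU and 626 for shCtrl, and is called the relative signal. A difference is the log2 relative signal of shLincU minus that of shCtrl, averaged over the probes of a gene that stood well above background on both arrays. Levels of different probes are not comparable with each other. Every direction is relative to the bulk of genes: scaling to 8 E1A spike-in controls instead moved the median of all genes by -0.89, and all 90 measured members were then lower in shLincU. No probe for LincU was used, so the knockdown itself was not checked here and directions rest on the labels. All 9 embryonic stem cell markers were measured, 5 of them lower in shLincU, with a median difference of -0.00059. Their summed relative signal was 918 on shLincU and 825 on shCtrl, of which Dppa5a made up 684 on shLincU and 583 on shCtrl. Of 10 fibroblast markers fixed for the feeder cells, 9 were measured and 7 were lower in shLincU, 5 of them at least 2-fold; their summed relative signal was 6.98 on shLincU and 15.5 on shCtrl.

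Of the 92 genes, 90 were measured on both arrays. At the level of probes this was 133 of 143, or 93.0%, against 56.4% of all 56572 probes. No member spot was saturated or marked as an outlier. The members lay among the bright genes, with 56 of 90 in decile 10, the brightest, of mean signal. The measured members differed little between the arrays: 88 of 90 lay within 0.5 on the log2 scale, where the share over all 21018 measured genes was 86.6%. Their SD was 0.21, and that of all genes was 0.40. Bright genes varied less in general. Within the interquartile signal range of the members, 44 members had an SD of 0.17 and 2181 other genes had an SD of 0.23. The median difference of the 90 members was -0.022, and that of all genes was 0.019. A lower signal in shLincU, by any size, was seen in 50 members (55.6%), against a background of 47.0%. A single member, Ndufa4l2, was at least 1.5-fold apart, against a background of 9.61% in either direction and 4.84% for lower genes. It was also the single member past 2-fold, where the background was 2.68% in either direction and 1.54% for lower genes. No member was 1.5-fold higher in shLincU, against a background of 4.77%.

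**Figure D1:**
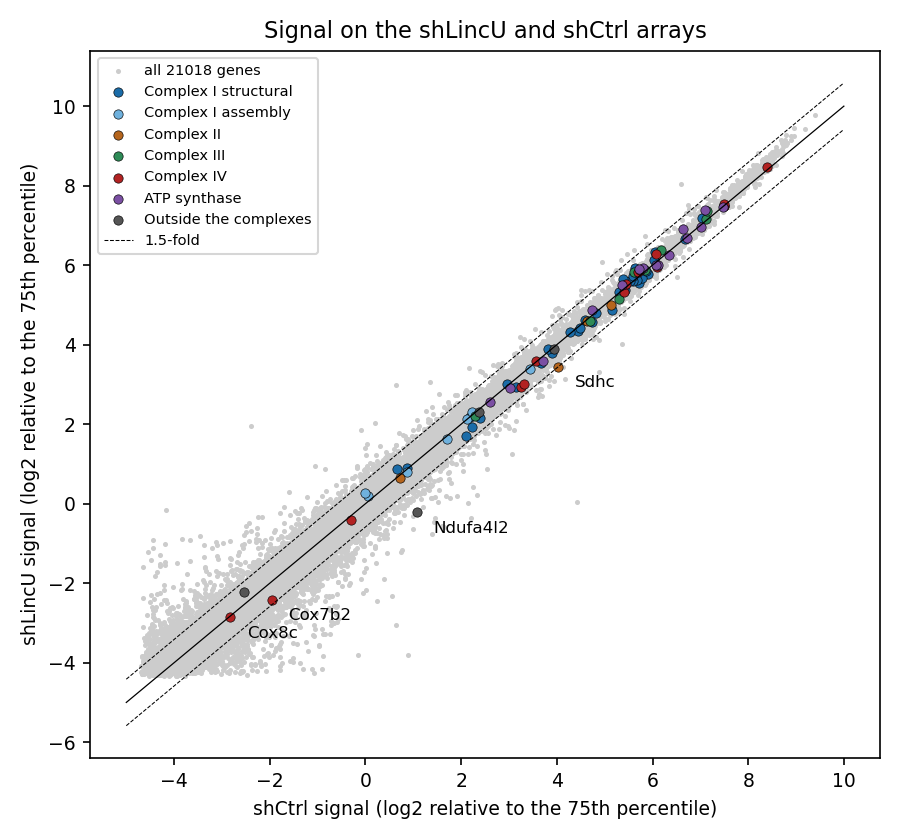
Relative signal of each gene on the shLincU array (vertical axis, log2) against the shCtrl array (horizontal axis, log2); grey points are all 21018 measured genes, coloured points the 90 members by complex, the solid line marks equality and the dashed lines 1.5-fold. The members follow the line of equality, apart from Ndufa4l2 below the lower dashed line and Sdhc close to it.

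The scatter of both arrays shows the members as a narrow band along equality, most of them in its upper right. The spread between probes of the same gene was a median SD of 0.064 over the 33 members measured by several probes, and 0.18 over all 7144 such genes. The other 57 members rest on 1 probe each. For those the scanner software gives an error of about 0.20 on the log2 difference, which is mostly preset in the software rather than measured. Most member differences are smaller than that, with quartiles at -0.11 and 0.092.

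The promoters of the members carry motifs of factors that drive respiratory gene transcription, nuclear respiratory factor 1 (NRF1), the ETS factor GABPA and YY1. RefSeq promoter windows of 300 bases (250 before to 50 after the start, build GRCm38.p6) were available for 75 members, in 81 windows. Both strands were searched with exact letters. The NRF1 motif, GCGCA and GCGC with any base between them, was found in 24.7% of member windows and in 4.60% of all 32851 windows. The ETS motif CCGGAAG was found in 21.0% of member windows and in 8.86% of all windows. The YY1 motif AAGATGGC was found in 14.8% of member windows and in 2.75% of all windows. Together, 53.1% of member windows and 14.7% of all windows held at least 1 of them. Of the genes classed as restricted isoforms, Cox6b2, Cox7a1, Cox7b2 and Cox8b had a window, and 0 of these 4 held any of the motifs, against 41 of the other 71 members. The windows below are shown for the testis form Cox6b2 beside its general partner Cox6b1, for Cox6a1, which holds 2 NRF1 motifs and 1 ETS motif, and for Atp5l, the ATP synthase gene with the highest difference. Capitals mark NRF1 and ETS motifs on either strand. The 4 windows lie on the minus strand at chr7:4753045-4753344, chr7:30626065-30626364, chr5:115348909-115349208 and chr9:44920693-44920992, in the order of the lines.
Cox6b2: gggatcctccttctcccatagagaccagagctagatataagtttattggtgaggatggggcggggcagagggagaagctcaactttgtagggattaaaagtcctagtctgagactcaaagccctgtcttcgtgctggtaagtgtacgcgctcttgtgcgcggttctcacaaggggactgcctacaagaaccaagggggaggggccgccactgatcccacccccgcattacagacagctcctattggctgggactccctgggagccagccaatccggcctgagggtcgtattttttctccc
Cox6b1: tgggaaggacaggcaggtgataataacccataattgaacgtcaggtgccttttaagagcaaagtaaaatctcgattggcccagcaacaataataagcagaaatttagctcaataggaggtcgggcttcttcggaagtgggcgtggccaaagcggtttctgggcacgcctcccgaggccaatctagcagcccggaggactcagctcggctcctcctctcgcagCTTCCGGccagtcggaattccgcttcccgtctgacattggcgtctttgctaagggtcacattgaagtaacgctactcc
Cox6a1: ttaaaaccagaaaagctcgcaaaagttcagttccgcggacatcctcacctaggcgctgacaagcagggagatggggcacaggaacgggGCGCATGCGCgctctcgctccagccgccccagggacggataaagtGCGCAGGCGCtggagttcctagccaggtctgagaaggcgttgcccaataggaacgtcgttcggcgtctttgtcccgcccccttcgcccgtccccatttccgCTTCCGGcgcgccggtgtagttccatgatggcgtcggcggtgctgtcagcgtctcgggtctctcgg
Atp5l: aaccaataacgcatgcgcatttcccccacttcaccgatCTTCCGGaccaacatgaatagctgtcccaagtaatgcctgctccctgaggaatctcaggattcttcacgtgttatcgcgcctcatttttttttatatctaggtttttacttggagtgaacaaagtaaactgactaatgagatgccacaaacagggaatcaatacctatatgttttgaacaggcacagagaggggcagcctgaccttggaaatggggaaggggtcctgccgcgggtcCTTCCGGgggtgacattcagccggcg

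The motifs did not separate the members by their difference. The 41 measured members with at least 1 of the motifs had a median difference of -0.0016, and the 33 measured members with a window but none of them had a median of -0.021. The hypoxia-response letters ACGTG occurred in 27.2% of member windows and 19.6% of all windows. The 19 measured members that held them had a median difference of -0.021, and the 55 without had a median of -0.0016. These matches are descriptions of letters and not of bound sites.

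Among the 36 structural subunits of complex I, 16 were higher and 20 were lower in shLincU, with a median of -0.016 and a range of -0.39 to 0.28. No subunit reached 1.5-fold. The 7 nuclear core subunits, which hold the flavin, the iron-sulphur clusters and the ubiquinone site, had a median of -0.13, and 5 of them were lower. Ndufs1, an iron-sulphur protein of the NADH-oxidising arm, had the lowest value of the complex. Its relative signal, averaged over 2 probes on the log2 scale, was 3.27 on shLincU and 4.27 on shCtrl, a difference of -0.39. The RefSeq probe had 35.1 on shLincU and 45.7 on shCtrl, a difference of -0.38. An Ensembl transcript probe of much lower signal had 0.304 on shLincU and 0.400 on shCtrl, a difference of -0.40. Ndufs8, which carries iron-sulphur clusters on the way to ubiquinone, had 29.4 on shLincU and 35.5 on shCtrl, a difference of -0.28 from 1 probe. Ndufv1, the subunit that binds NADH and the flavin, had 23.5 on shLincU and 26.7 on shCtrl. Its difference of -0.18 was the mean of 2 probes at -0.30 and -0.066. Each of the 3 lay more than 1 scanner error below 0, where that error was 0.15 for Ndufs1, 0.20 for Ndufs8 and 0.14 for Ndufv1. Differences of about that size are common, since the quartiles of all genes were -0.17 and 0.20. The errors of Ndufs1 and Ndufv1 treat the probes of a gene as independent. A single Ndufv1 probe has an error of 0.20, which is larger than the Ndufv1 difference.

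Other core subunits did not all follow. Ndufs7, an iron-sulphur subunit near the ubiquinone site, differed by -0.0087, with relative signals of 48.3 on shLincU and 48.5 on shCtrl. Ndufv2, the partner of Ndufv1, differed by 0.021. Ndufs3, a core subunit of the arm that faces the matrix, differed by 0.21 as the mean of 0.0048 and 0.41. That mean lay more than 1 scanner error (0.195) above 0, but it rests on an Ensembl transcript probe of low signal. This probe had 0.0807 on shLincU and 0.0607 on shCtrl, with a scanner error of 0.33. The RefSeq probe gave the 0.0048, with 41.7 on shLincU and 41.5 on shCtrl. On these means over probes the core ran from -0.39 to 0.21 within 1 complex. Apart from Ndufs1 its members lay within the range of the accessory subunits.

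The 29 accessory subunits, which surround and stabilise the core, had a median of -0.011, with 14 higher and 15 lower. The highest were Ndufa2, with relative signals of 60.5 on shLincU and 50.01 on shCtrl, and Ndufa5, with 79.8 on shLincU and 66.0 on shCtrl, each a difference of 0.28. Ndufs5 followed with a difference of 0.26. The lowest was Ndufa3, with a mean of -0.29. That mean rests on an Ensembl transcript probe of low signal (0.072 on shLincU and 0.124 on shCtrl) at -0.78, while its RefSeq probes gave -0.072 and -0.029. Ndufa10 differed by -0.23 over 3 probes, and Ndufa8 by -0.20. Ndufs4, whose loss causes a mitochondrial encephalopathy in mice, differed by 0.017.

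The 7 assembly factors with Nduf names build complex I without remaining in it, and 3 were higher and 4 lower, with a median of -0.0016. Ndufaf5, a hydroxylase that modifies Ndufs7, had relative signals of 1.21 on shLincU and 0.991 on shCtrl, a difference of 0.28 over 2 probes at 0.46 and 0.10. A further probe, below background on the shLincU array, brought its mean to -0.00066 where no background filter was set. Ndufaf6 was next with a mean of 0.16, which rests on 2 Ensembl transcript probes at 0.24 and 0.30. Its RefSeq probe, the brightest, gave -0.079. At the other end Ndufaf7, a methyltransferase, differed by -0.087 and Ndufaf3 by -0.073. Of 9 measured assembly factors with other names, 5 were higher and 4 lower with a median of 0.0079, between Acad9 at -0.26 and Tmem126b at 0.16.

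**Figure D2:**
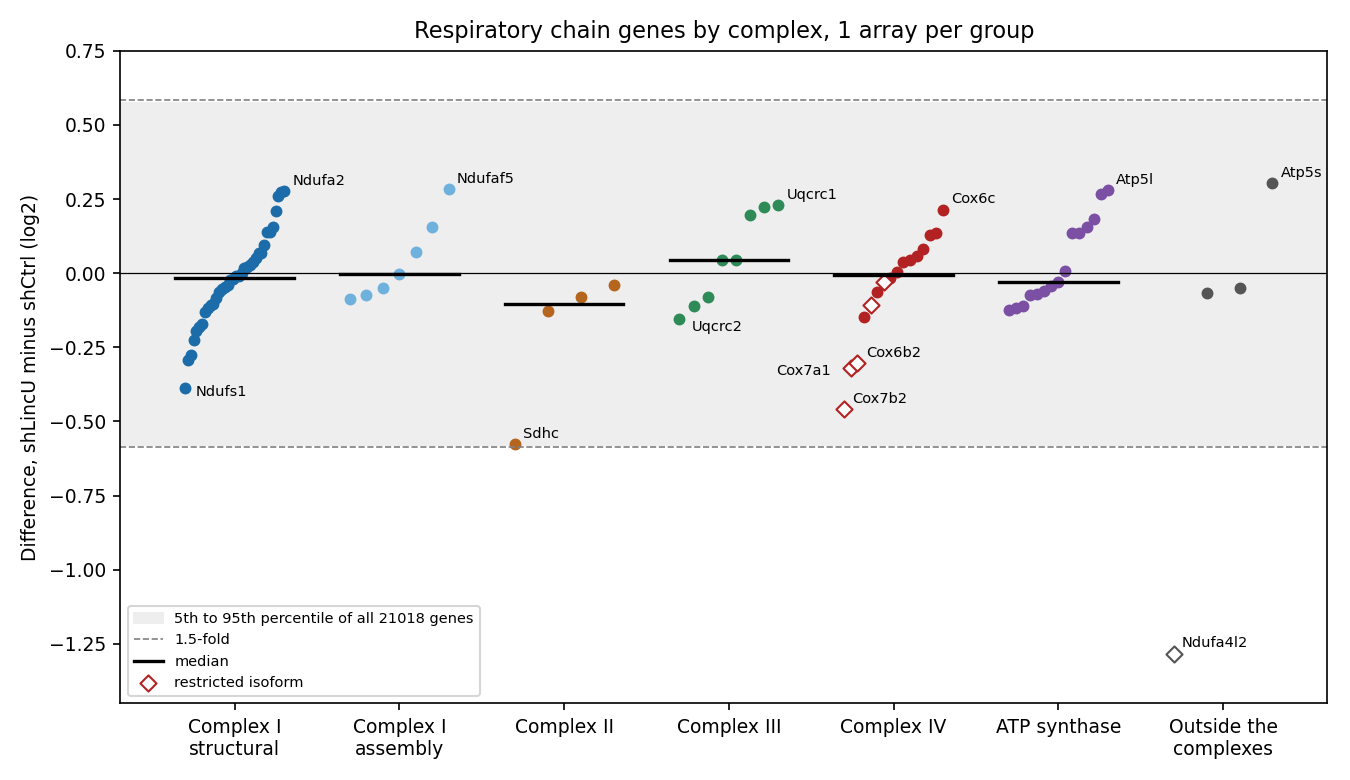
Difference of each measured member (shLincU minus shCtrl, log2) by complex, 1 point per gene; diamonds are restricted isoforms, thick lines medians, dashed lines 1.5-fold, and the grey band the central 90% of all 21018 genes. All complexes centre near 0, complex II lies below it with Sdhc at -0.58, and Ndufa4l2 stands alone at -1.28.

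All 4 subunits of complex II, succinate dehydrogenase, were lower in shLincU, with a median of -0.10, while 47.0% of all genes were lower; Sdhb turned to 0.0031 when the brightest probe alone was read, and Sdha to 0.073 over the upper rows alone. The complex also works in the tricarboxylic acid cycle and is encoded wholly in the nucleus. Sdhc, a membrane anchor that helps bind haem and ubiquinone, had a relative signal of 10.9 on shLincU and 16.3 on shCtrl. Its difference of -0.58 came from 1 probe (mm9 chr1:173059539-173059598) and fell just short of 1.5-fold, while the nearest member past that size was Ndufa4l2 and the next below it Cox7b2 at -0.46. Sdhd, the other anchor, had 31.9 on shLincU and 34.8 on shCtrl, a difference of -0.13. The catalytic pair differed less. Sdha, the flavoprotein that oxidises succinate, differed by -0.080 over 4 probes that ran from -0.29 to 0.073, and Sdhb, the iron-sulphur subunit, differed by -0.041. Sdhc was thus the gene that set this complex apart in size. The 4 measured complex II assembly factors had a median of -0.064, between Sdhaf3 at -0.21 and Sdhaf4 at 0.076.

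Complex III showed 5 genes higher and 3 lower, with a median of 0.044. Uqcrc1 and Uqcrc2 are the paired core proteins of this complex, and they lay at its opposite ends. Uqcrc1 had a relative signal of 57.1 on shLincU and 48.7 on shCtrl, a difference of 0.23. Uqcrc2 had 35.5 on shLincU and 39.5 on shCtrl, a difference of -0.15. The hinge protein gene Uqcrh had 164 on shLincU and 140 on shCtrl, a difference of 0.22. Uqcrfs1, the Rieske iron-sulphur protein that takes electrons from ubiquinol, had 24.1 on shLincU and 26.0 on shCtrl, a difference of -0.11. The direction of the complex's median was not stable, since it was -0.041 in the deposited value table. Among 5 measured assembly factors the median was 0.020, between Uqcc2 at -0.15 and Uqcc1 at 0.071.

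Complex IV, cytochrome c oxidase, had 16 of 18 genes measured, 8 higher and 8 lower, with a median of -0.0062. The 11 general subunits had a median of 0.044 and 8 of them were higher in shLincU. Cox6c was the highest, with a relative signal of 77.7 on shLincU and 66.9 on shCtrl, a difference of 0.21. Cox7a2 (0.14) and Cox7b (0.13) followed. Cox4i1 and Cox5a, which are the first nuclear subunits to join the mitochondrially encoded core, hardly differed. Cox4i1 had 181 on both arrays, and Cox5a had 179 on shLincU and 181 on shCtrl. Cox7a2l, a factor of supercomplexes of complexes III and IV, was the lowest general gene at -0.15, with 61.9 on shLincU and 68.6 on shCtrl. Ndufa4, named for complex I but now counted with complex IV, differed by -0.063. The direction of the general subunits as a set depended on the scaling. Their median was -0.048 with quantile normalization and -0.044 with cyclic loess. It was -0.11 in the deposited value table, where Cox4i1, Cox6a1 and Cox8a were lower too. Of 26 complex IV assembly factors, 12 were higher and 14 lower with a median of -0.019, between Coa3 at -0.41 and Pet117 at 0.49.

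The restricted isoforms of complex IV had a lower median than the general subunits. All 5 that were measured were lower in shLincU, with a median of -0.30, while the background for lower genes was 47.0%. Cox7b2, known from testis, had a relative signal of 0.188 on shLincU and 0.258 on shCtrl, a difference of -0.46. Cox7a1, of heart and skeletal muscle, had 7.66 on shLincU and 9.57 on shCtrl, a difference of -0.32. Cox6b2, a further testis form, had 8.005 on shLincU and 9.88 on shCtrl, a difference of -0.30. Each of these 3 lay more than 1 scanner error below 0, while the lower quartile of all genes was -0.17. Cox7b2 lay in decile 3 of mean signal, where the SD over all genes was 0.54, so its difference is within 1 such SD. Cox4i2, best known from lung, differed by -0.11 (0.753 on shLincU and 0.812 on shCtrl), and Cox8c, of testis, by -0.031 (0.138 on shLincU and 0.141 on shCtrl). Normexp background correction brought the median of the 5 to -0.11, Cox7b2 to -0.11 and Cox8c to 0.16, so the dim members of this set depend on how background is removed.

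The remaining restricted isoforms could not be given a difference. Cox6a2, of heart and skeletal muscle (probe at mm9 chr7:135349160-135349219), was well above background on the shCtrl array alone. Its relative signal was 0.0417 on shLincU and 0.0701 on shCtrl. Against the lowest signal well above background on the shLincU array, 0.0493, it was at least 1.42-fold lower in shLincU, or 0.51 on the log2 scale. That bound leaves out the scanner error of the probe, 0.43 on the log2 difference, so it is not a firm limit. Such one-sided detection was more common toward shCtrl over all genes, with 1699 genes seen there alone and 591 seen on the shLincU array alone. Cox8b, also of muscle, was not well above background on either array.

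**Figure D3:**
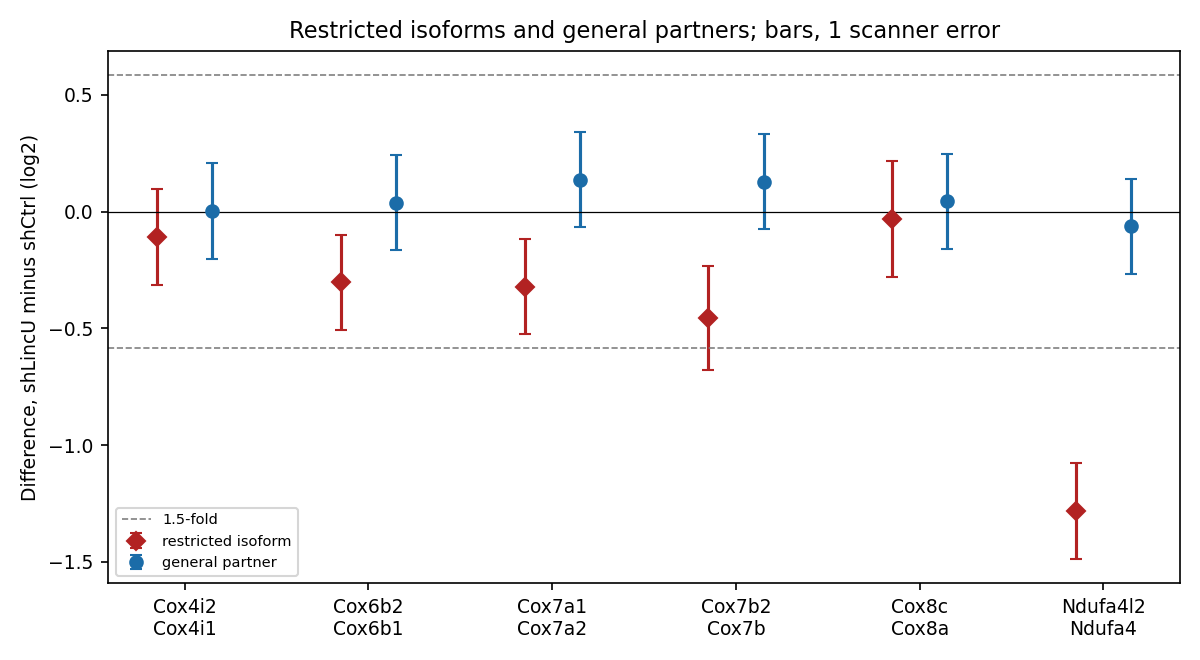
Difference (shLincU minus shCtrl, log2) of 6 restricted isoforms (diamonds, upper name) and their general partners (circles, lower name); bars are 1 scanner error and dashed lines 1.5-fold. Each restricted isoform lies below its partner, by the widest gap for Ndufa4l2 at -1.28 against Ndufa4 at -0.063, the bars of Cox4i2, Cox6b2 and Cox8c overlap those of their partners, and Cox4i2 and Cox8c lie above their partners in the deposited value table, Cox8c also with normexp and quantile normalization.

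In the plot of isoform pairs each restricted gene lay below its general partner, but the order of 2 pairs depended on the scaling. In the deposited value table Cox4i2 was at -0.10 and Cox4i1 at -0.15, and Cox8c was at -0.046 and Cox8a at -0.11. Cox8c also lay above Cox8a with normexp (0.16 and 0.0077) and, by a small margin, with quantile normalization (-0.047 and -0.048). Cox6b2 was at -0.30 and Cox6b1 at 0.038, the pair whose promoters are printed above. Cox7a1 was at -0.32 and Cox7a2 at 0.14. Cox7b2 was at -0.46 and Cox7b at 0.13. Cox4i2 and Cox8c were closer to their partners, Cox4i1 at 0.0029 and Cox8a at 0.044. The 4 of 5 muscle markers that were measured had a summed relative signal of 5.23 on shLincU and 6.04 on shCtrl, with Ckm not measured on both arrays. Myh6 made up 4.22 of that sum on shLincU and 4.95 on shCtrl. Of the 4, 2 were lower in shLincU, while Acta1 (0.52) and Tnnt2 (0.019) were higher. The 3 of 4 measured testis germ cell markers had a sum of 0.304 on shLincU and 0.317 on shCtrl, with Pgk2 not measured on both arrays. Prm1 (-0.31) and Tnp1 (-0.016) were lower and Prm2 (0.42) was higher. Fibroblast markers were lower in sum in shLincU, and their part in these differences was not tested.

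Ndufa4l2, a paralogue of Ndufa4 that is known in human cells as a target of hypoxia-inducible factor and lowers complex I activity, had the lowest value of the 90 measured members. Its relative signal was 0.868 on shLincU and 2.11 on shCtrl, a 2.43-fold lower signal in shLincU and a difference of -1.28 with a scanner error of 0.20. It rests on 1 probe (mm9 chr10:126954149-126954208). A second probe, named for an expressed sequence tag, was below background on both arrays, and averaging it in without a background filter gave -0.46. Fewer cells of a type and less RNA per cell cannot be told apart in bulk RNA. The summed fibroblast marker signal was 6.98 on shLincU and 15.5 on shCtrl, with Dcn at -2.41, Ccl2 at -2.24 and Lox at -2.15 but Col1a1 at 0.45 and Col3a1 at 0.64. The part of feeder cells in the Ndufa4l2 difference was not tested.

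The other genes outside the complexes differed less. Atp5s, renamed Dmac2l in RefSeq, had a relative signal of 0.213 on shLincU and 0.172 on shCtrl, and its difference of 0.30 was the highest of all 90. Atp5sl, renamed Dmac2 and involved in complex I assembly, differed by -0.068. The pseudogene Atp5c1-ps differed by -0.050, close to its parent Atp5c1, and transcripts of near-identical sequence cannot be separated by hybridisation with certainty.

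The 15 ATP synthase genes had a median of -0.030, with 7 higher and 8 lower. In the catalytic head and central stalk, Atp5a1 (the alpha subunit) had a relative signal of 63.8 on shLincU and 68.9 on shCtrl, a difference of -0.11. Its partner Atp5b (beta) had 61.0 on shLincU and 55.6 on shCtrl, a difference of 0.14 with 3 probes between 0.050 and 0.20. Atp5c1 (gamma) differed by -0.061. Atp5e (epsilon), of the central stalk, was near the top of the set, with 120 on shLincU and 99.3 on shCtrl, a difference of 0.27. The head thus held both directions, with alpha lower and beta higher in shLincU.

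The membrane part and the stalk were similar in range. Atp5l, subunit g, which contributes to the dimers that bend the inner membrane, had the highest difference. Its relative signal was 166 on shLincU and 137 on shCtrl, a difference of 0.28, and its 2 probes gave 0.27 and 0.29. Atp5k, subunit e of the same region, differed by -0.072. Of the 4 peripheral stalk genes 3 were lower, led by Atp5f1 (RefSeq Atp5pb) at -0.12, while Atp5j was at 0.18. The RefSeq probes of Atp5f1 gave -0.26 and -0.18. An Ensembl transcript probe of low signal (0.118 on shLincU and 0.110 on shCtrl) gave 0.094, which was also the Atp5f1 value over the upper rows alone. Among 6 assembly factors and regulators the median was -0.035, between Tmem70 at -0.32 and Atpif1, the inhibitor of ATP hydrolysis, at 0.21.

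The c ring that rotates in the membrane is encoded by 3 genes with the same mature protein. Atp5g2 was the best measured member, with 10 spots of 1 probe. Its relative signal ran from 162 to 192 with a median of 176 on shLincU, and from 169 to 182 with a median of 179 on shCtrl. The difference was 0.0083 ± 0.050 (SD, n = 10 spots), so the arrays overlapped for this gene. These spots share 1 RNA per array and measure technical spread alone. Atp5g3 differed by -0.12 over 2 probes at -0.13 and -0.11. Atp5g1 averaged 0.14, but its RefSeq probes gave -0.17 and -0.10, and a probe named for an Ensembl transcript gave 0.68 (15.7 on shLincU and 9.79 on shCtrl). The sign of Atp5g1 therefore depends on which probe is read.

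**Figure D4:**
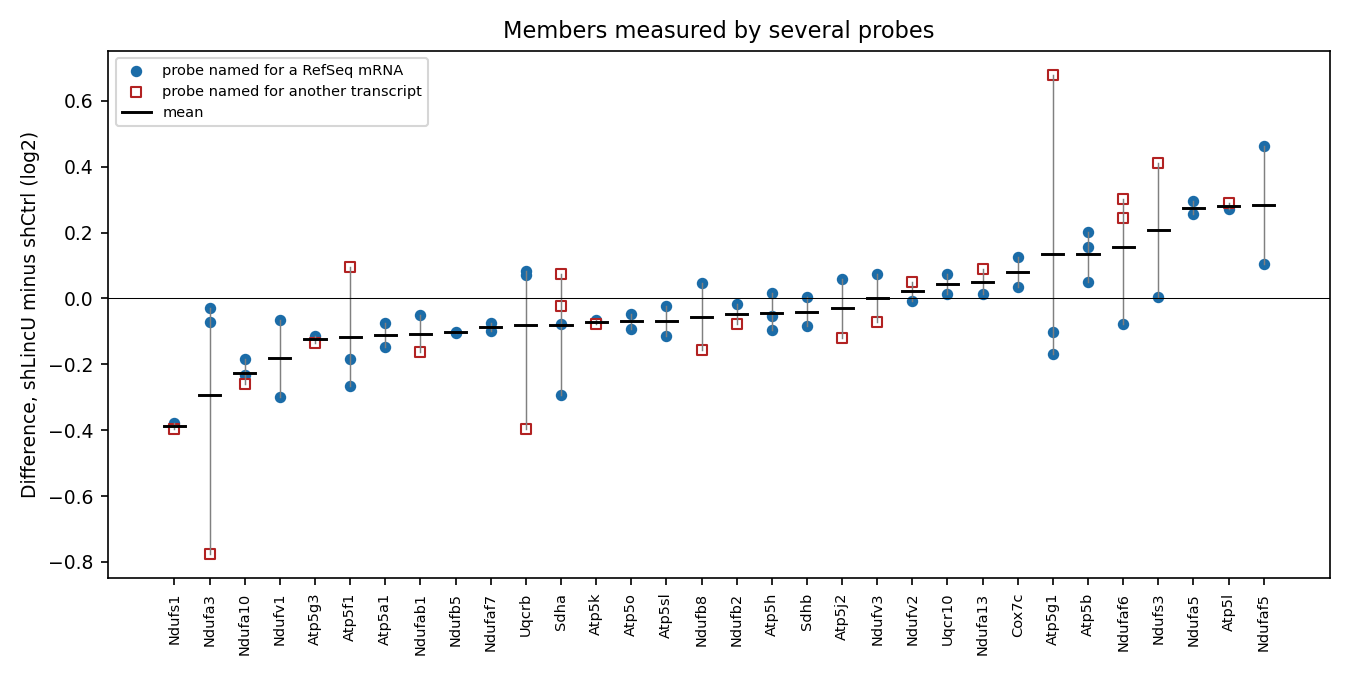
Difference (shLincU minus shCtrl, log2) of every measured probe of members with several probes; circles are probes named for a RefSeq mRNA, squares probes named for another transcript, and thick bars the mean. Ndufa3 and Atp5g1 have the widest ranges, each through 1 square at -0.78 and 0.68.

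Probes of the same gene gave close values in most members. The probes of 2 members, Ndufa3 and Atp5g1, differed by more than 0.58, and in both the probe that stood apart was named for an Ensembl transcript. Over all members, the 110 measured probes named for a RefSeq mRNA had a median of -0.015 and an SD of 0.20. The 23 measured probes named for other transcripts had a median of -0.072, an SD of 0.31 and a range of -0.78 to 0.68. Position in the transcript also went with the difference. Over the 110 RefSeq probes Spearman's rho between the difference and the probe's start was -0.29, as a description across probes that share both arrays, and over all 20455 such probes it was -0.14. The 55 member probes that start before base 528 had a median of 0.034, and the 55 at or after it had a median of -0.073. All probes split at the same base had medians of 0.099 and -0.0062. The rho with GC content was 0.0094 for members and 0.15 for all probes. The part of probe position in the members' differences was not tested.

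Genes that work beside the complexes were read from lists. The 9 measured genes of the list of electron carriers and entry points had a median of -0.23, and 7 were lower in shLincU, against a background of 47.0%. The list includes Aox1 (0.094), an aldehyde oxidase that is not a carrier of the respiratory chain. Etfa, the alpha subunit of the flavoprotein that passes electrons from fatty acid oxidation, had a relative signal of 5.65 on shLincU and 9.79 on shCtrl. Its difference of -0.79 held over 3 probes between -0.91 and -0.73. Etfa was the single gene of this list past 1.5-fold, against a background of 9.61% in either direction. Cytochrome c (Cycs) had 21.2 on shLincU and 25.2 on shCtrl, a difference of -0.25, and cytochrome c1 (Cyc1), which the naming rule does not put in complex III, differed by -0.18. The highest was Dhodh, of pyrimidine synthesis, at 0.16. The 11 genes of ubiquinone synthesis had a median of -0.070, between Coq9 at -0.30 and Coq2 at 0.29.

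The tricarboxylic acid cycle list had 6 genes higher and 11 lower, with a median of -0.059. Sucla2, a subunit of succinyl-CoA synthetase, had 1.02 on shLincU and 1.91 on shCtrl, a difference of -0.90 from 1 probe. This was the single value of this list past 1.5-fold, against a background of 9.61% in either direction. Suclg1, its partner subunit, differed by 0.46, but its 2 probes gave -0.0075 and 0.92. The 8 measured uncoupling and nucleotide carriers had a median of 0.037, with Slc25a4, the adenine nucleotide carrier of heart and muscle, lowest at -0.28. The 17 measured regulators of respiratory genes and mitochondrial DNA had a median of -0.048, between Ppargc1b at -0.31 and Twnk, the mitochondrial helicase, at 0.33.

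The 11 mitochondrially encoded messenger RNAs are transcribed inside the organelle, and 6 were higher and 5 lower in shLincU, with a median of 0.18. ND6, the complex I subunit encoded on the opposite strand from the other messages, had a relative signal of 4.07 on shLincU and 1.16 on shCtrl, a difference of 1.82 from 1 probe. No other message of this list reached 1.5-fold, while 9.61% of all genes did in either direction. ND5 was the lowest at -0.17. Of the protein families of the ribosomes, the 78 mitochondrial genes had a median of -0.017 with 36 higher and 42 lower, and the 82 cytosolic genes had a median of 0.11 with 69 higher. The respiratory chain members, with 40 higher and 50 lower, lay close to the mitochondrial ribosomal genes in median and in SD (0.21 and 0.17).

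**Figure D5:**
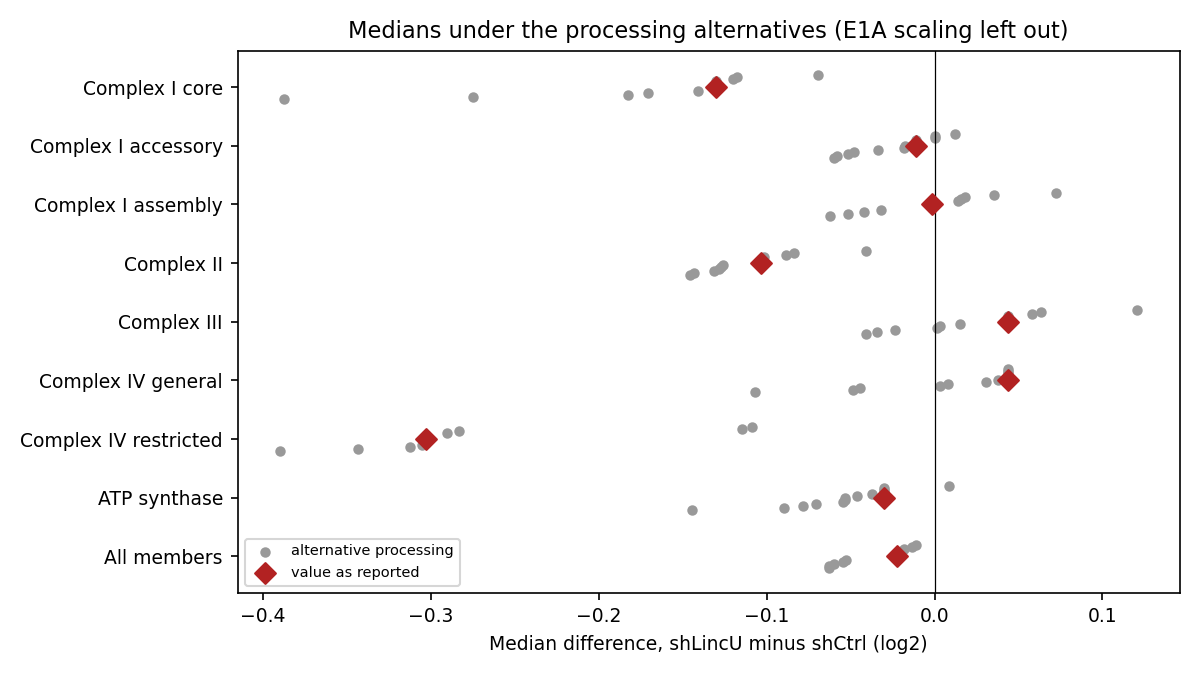
Median difference (shLincU minus shCtrl, log2) of each group of members as reported (diamonds) and under the processing alternatives other than E1A scaling (grey points). The median over all members stays between -0.063 and -0.011, complex III, general complex IV, the ATP synthase and the accessory and assembly genes of complex I fall on both sides of 0, and restricted complex IV ranges from -0.39 to -0.11.

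The plot of alternatives shows which statements rest on the scaling. The median of all members was between -0.063 and -0.011 under the 13 alternatives other than E1A scaling. It lay below the median of all genes under all 14 alternatives, by a gap of -0.16 to -0.016 on the log2 scale. E1A scaling and centring on the array median shift every gene alike, so they return the reported gap of -0.041 by construction. Keeping outlier spots could not move a member, since no member spot was marked as one. Of the 90 members, 72 had the same sign as reported and under the 5 other scalings, 26 of them higher in shLincU and 46 lower. Each of these scalings had more members lower, 55 to 60, than the 50 reported, and all use the same arrays. The same-sign count is not given for all genes or for equally bright genes, so its split does not show a lean of the members. Medians of complex II, of the complex I core and of the restricted complex IV isoforms remained below 0 in all these alternatives.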

How the data were processed

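Total RNA of 46C mouse embryonic stem cells was hybridised to single-colour Agilent arrays, 1 per group, and groups were taken from the genotype in the labels. Per the submitters' processing notes, the authors used Agilent Feature Extraction 10.7.1.1, which gave each spot a processed intensity. Per the file headers, mean spot and median background intensity carry no correction. The deposited scanner files also hold other columns, flags for well above background, outlier and saturated spots. The deposited table holds log2 values with a median of 5.65 in each column and a slope of 1.00 on the scanner log2 values, and its centring is unknown. Columns of other samples numbered 0.

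Here the log2 processed intensity was centred on each array's 75th percentile over non-control probes, outlier spots were left out, spots of a probe and then probes of a gene were averaged. Probes were named through RefSeq, with 32994 matched on accession, 10224 on symbol, 520 on a synonym, and 12867 left under the array's name. All 92 members matched RefSeq and 3 had been renamed there. There was no test. Genes were counted at 1.5-fold and 2-fold. Genes were named by a rule: members past 1.5-fold, the highest and lowest 2 of each complex, core subunits (1 is not reported here), isoforms with their partners, members whose probes differ by over 0.58, and the ends of each other list. Others, such as Ndufs4, Ndufs5, Ndufa8, Ndufa10, Cycs, Cyc1, Atp5e, Atp5k, Atp5j and the genes outside the complexes, were chosen after their values were seen. Members, lists and rules were chosen with earlier results of these data known. The calculation was tested on simulated data. Alternatives were normexp with an offset of 50, quantile, cyclic loess and median scaling, 8 E1A controls, the deposited table, other background, outlier and probe rules, upper and lower rows, and leaving out spots beside discordant ones. Software was R 4.3.3 with limma 3.58.1, and Python 3.11.15 with pandas 2.3.3, numpy 2.4.6, matplotlib 3.10.9 and scipy 1.17.1.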

Additional observations from a re-analysis of the deposited data

How the results depend on the processing

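A median was taken to have moved when it shifted by more than 0.18, which is the median over genes of the SD between probes. Of 154 median comparisons 151 stayed within that size. E1A scaling, with its shift removed, returns the reported values by construction and counts among these and the gene comparisons below. Every reported member median apart from that of restricted complex IV is nearer to 0 than that size. A median could therefore change sign and still stay within it. The restricted complex IV median was -0.11 with normexp background correction and -0.11 over the lower rows alone, where 3 genes were left, and the complex I core median was -0.39 over the lower rows, where 1 gene was left; these medians and those of the complex I accessory and general complex IV subunits were added after seeing the data. The number of members at least 1.5-fold apart was 2 with normexp, cyclic loess or centring on the array median, where Sdhc passed at -0.60, -0.59 and -0.62. It was 2 with the positive-and-significant flag, where Cox6a2 entered, 2 over the upper rows, where Atp5g1 rested on the probe at 0.68, and 0 over the lower rows, which do not hold the Ndufa4l2 probe. Of 618 comparisons of 47 named genes, 598 stayed within the same size and 20 moved, in 12 genes. The sign changed in 33 of them, in 13 genes, each less than 1.5-fold apart as reported. Apart from E1A scaling, whose shift is removed here, Ndufa4l2 lay between -1.32 and -1.17 in every alternative that measured it with its bright probe, and at -0.46 without a background filter. No paired analysis was possible because both groups consist of a single array, which also means that leaving out an array gives no value. The precision is limited by the number of arrays: a difference between cultures, hairpins or hybridisations cannot be told apart from one between groups.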
